A study of Mus musculus with 10 samples.

Results

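The serpins are a superfamily of proteins that share a fold, most of which inhibit proteases. The genes described here are the protein-coding mouse genes whose symbol begins with Serpin: 61 of the 47069 gene IDs in each count file. Their transcripts were measured by RNA sequencing in 10 prostate orthografts, which are tumours grown from cultured prostate cancer cells injected into an anterior prostate lobe of male CD-1 Nude mice. P1 (3 tumours) is a line whose donor mouse had a prostate tumour at 14 months. CP1 (3 tumours) and CP2 (4 tumours) are lines whose donors had prostate tumours at 6 and 8 months and carried, on 1 allele in the prostate, a deletion of Ctnnb1 exon 3, which stabilises beta-catenin. The P1 donor is not labelled with this deletion, and further differences of genotype separate it from the CP donors. Line, genotype and donor age change together and cannot be told apart, and each line comes from a single donor tumour. The host mice lack a normal thymus but keep other immune cells, and the RNA of each tumour is a mixture of grafted cells and host tissue.

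A serpin holds out a reactive loop as bait. A protease that cuts the loop is trapped in a covalent complex, so each inhibitor molecule works once. Clade A serpins are mostly secreted, many of them by the liver, and include the antitrypsin and antichymotrypsin families. Clade B serpins lack a classical signal peptide and act mostly inside cells, where they protect against proteases such as granzymes and cathepsins. Other clades control clotting (C and D), plasminogen activation (E), complement (G) and neuronal proteases (I), and a few members have lost inhibition and do other work, such as Serpinh1, which folds collagen.

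Total counts ranged from 28050484 to 37180721 in P1, from 25081535 to 30546426 in CP1 and from 18800912 to 20638085 in CP2. For CP2 replicate 1, the tissue and source labels say CP2 but the title says CP1; it was kept in CP2. Across genes, its log2 levels had a mean correlation of 0.984 with the other CP2 tumours, against 0.912 with CP1 and 0.842 with P1. Ctnnb1 itself, the gene altered in the CP donors, stood at 1800, 1950 and 1900 CPM (read counts scaled to the library total) in P1, with 1170, 917 and 1130 in CP1 and 1040, 1040, 937 and 1010 in CP2. Counts per gene do not show whether exon 3 is missing. Several marker levels differed between and within lines. The luminal epithelial gene Epcam ran from 862 to 1280 CPM in P1 and from 8.44 to 31.4 CPM in the CP tumours, so that this marker of prostate epithelium was low in both CP lines. A list of seminal vesicle and secretory prostate genes took 15, 6.86 and 1.94% of counts in P1 replicates 1 to 3 and at most 0.169% in any CP tumour. A urothelial list took 0.00768, 0.149 and 0.0617% in CP1 replicates 1 to 3, and a hepatocyte list took 0.0352% in CP2 replicate 3 against 0.00192 to 0.00323% in the other CP2 tumours. In such bulk tissue, fewer cells of a type and less RNA per cell cannot be told apart.

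Serpin transcripts made up between 0.16 and 0.265% of all counts in each tumour. A different gene led in each line. On a per-length scale (RPKM, reads scaled to exon length and library total), P1 had a mixed profile led by Serpinb1a at 122 ± 25.5 (SD, n = 3) and Serpinh1 at 117 ± 34.3 (SD, n = 3), which were 16.4 and 15.7% of the family sum. In CP1 the collagen chaperone Serpinh1 alone made up 40.3% of the sum, at 289 ± 68.5 RPKM (SD, n = 3), followed by Serpina3n at 81.4 ± 50.2. In CP2 Serpinf1, which encodes pigment epithelium-derived factor, made up 56.5% at 359 ± 58.9 RPKM (SD, n = 4), followed by Serpinh1 at 79.3 ± 27.1. The levels of Serpinb1a and Serpinh1 in P1 lay within each other's spread, whereas the leading gene of CP1 and of CP2 was above the next by more than their spreads.

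**Figure D1:**
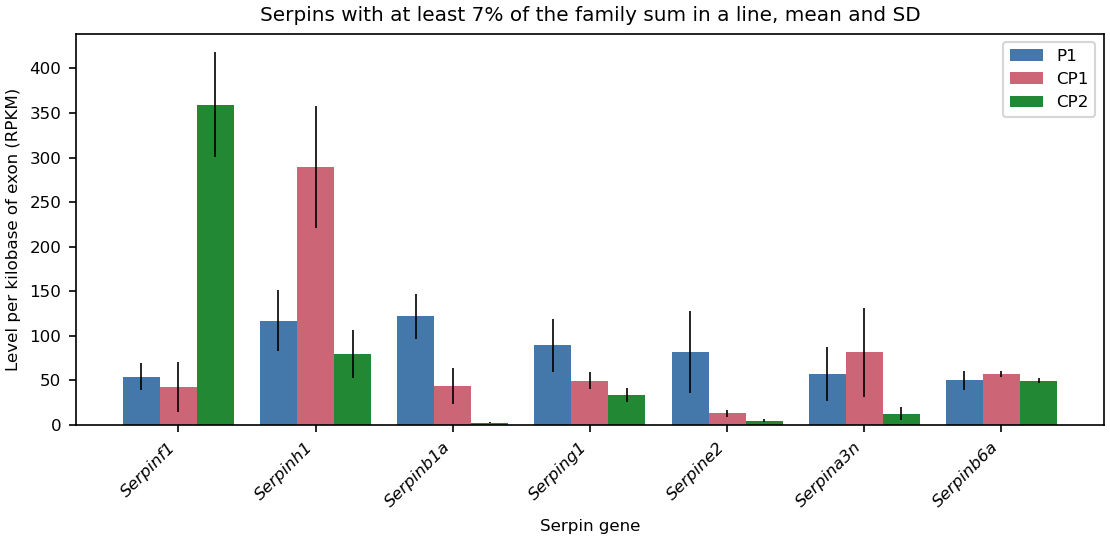
Mean level of serpin genes that made up at least 7% of the family sum in a line, in RPKM, with bars for P1 (n = 3), CP1 (n = 3) and CP2 (n = 4) and error bars of 1 SD over tumours. Serpinf1 in CP2 (359 RPKM) and Serpinh1 in CP1 (289 RPKM) stand above all other bars, while P1 has no single leading gene.

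Of the 61 members, 29 had enough counts to be tested and 32 did not; 8 of the latter had at most 3 counts over all tumours. Adjusted p-values are from edgeR's quasi-likelihood test with Benjamini-Hochberg adjustment over all 17644 genes tested, and a gene was called at an adjusted p below 0.05. In CP1 versus P1, 7 of the 29 were higher and 7 lower (24.1% each), with 22.4% of all tested genes higher and 22.4% lower. In CP2 versus P1, 6 were higher and 11 lower (20.7 and 37.9%), with 28.3% of all tested genes higher and 28.4% lower. In CP2 versus CP1, 3 were higher and 13 lower (10.3 and 44.8%), with 21.3% of all tested genes higher and 21.9% lower. The share in CP1 versus P1 was near that of all genes. The same shares of all tested genes are the background for the counts given below for other gene lists. No list was tested against these shares, and most lists are short, so counts near them do not show that a list was like the rest. The median log2 fold change of the 29 was -0.10, -0.56 and -0.67 in these comparisons, against -0.01, 0 and -0.01 over all genes tested. With Serpinb9g, which had no count in P1 or CP2, set at its bound or left out where neither line had a count, the medians were -0.10, -0.59 and -0.67. These counts leave out the 32 members that did not pass the filter on low counts, and a gene that passed through 1 line had to differ between lines, so they describe the tested genes and not the family. The 3 comparisons share tumours and are not independent of each other.

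**Figure D2:**
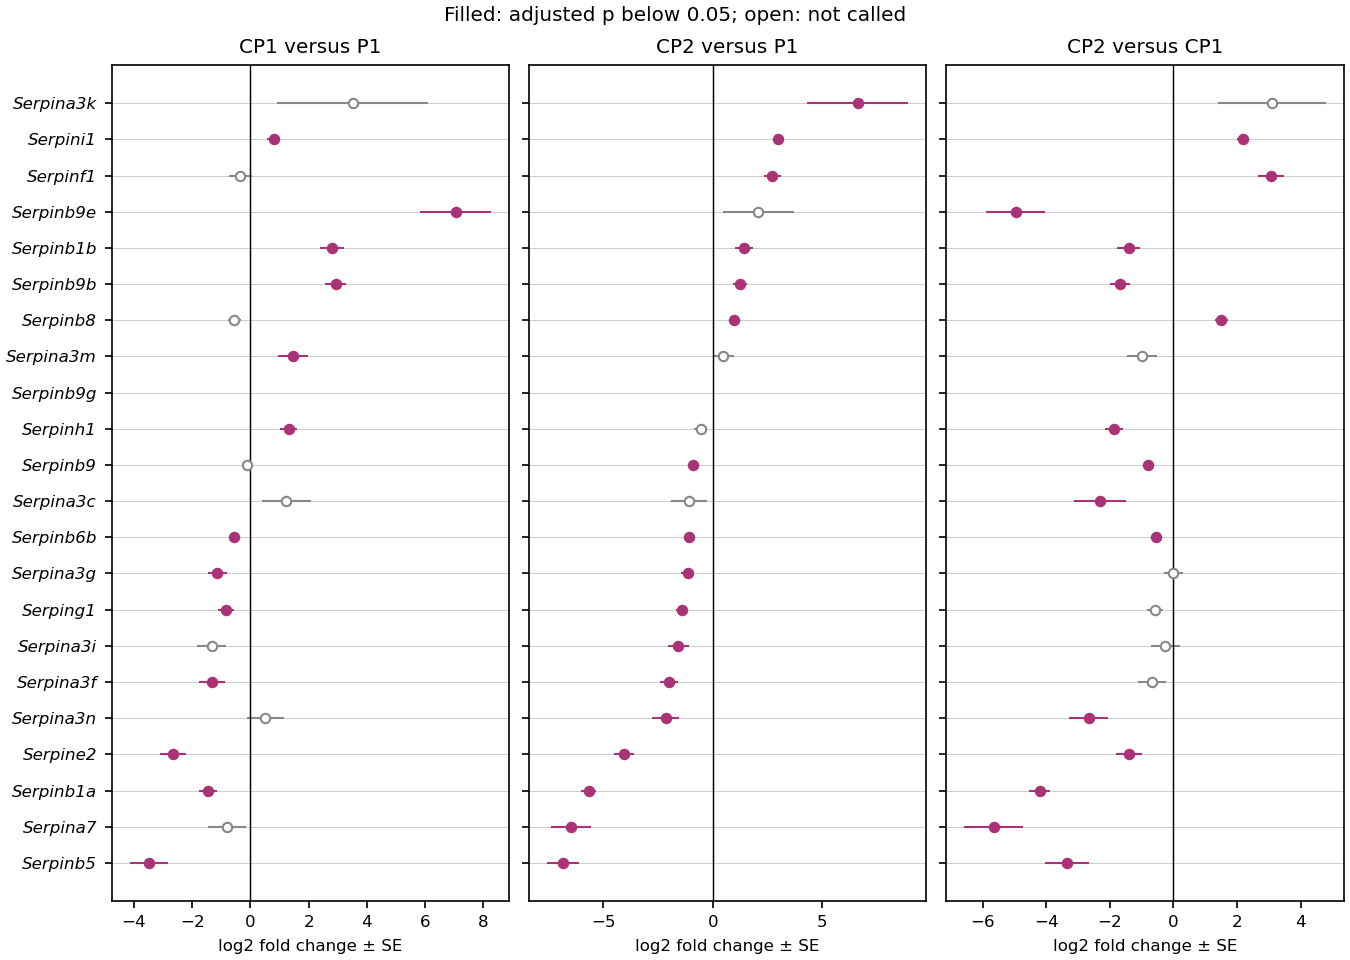
log2 fold change with its SE for the serpin genes called in at least 1 of the 3 comparisons, filled where the adjusted p is below 0.05 and open where it is not. Each panel has its own horizontal scale, and the row of Serpinb9g is blank because its folds are bounds. More filled points lie left of 0 than right of it in CP2 versus P1 (11 against 6) and in CP2 versus CP1 (13 against 3, counting Serpinb9g, whose point is not drawn).

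The leading serpin of CP2, Serpinf1 (chr11:75409769-75422701, minus strand, GRCm38), encodes a secreted protein that has lost protease inhibition and is known as an inhibitor of blood vessel growth. It stood at 168, 101 and 117 CPM in P1, with 176, 71.2 and 54.2 in CP1 and 959, 684, 778 and 965 in CP2. Every CP2 tumour was above every other tumour, and P1 and CP1 overlapped. The log2 fold change was 2.72 ± 0.40 in CP2 versus P1 (adjusted p = 2.737e-04) and 3.07 ± 0.41 in CP2 versus CP1 (adjusted p = 2.912e-04). Without CP1 replicate 1, the highest of that line, CP2 versus CP1 was 3.75. The value in CP1 versus P1 was -0.35 (adjusted p = 0.494), and without CP1 replicate 1 it was -1.05 (adjusted p = 0.00893), so that call depends on the same tumour. A list of endothelial genes took 0.0219 to 0.0386% of counts in CP2 and 0.0314 to 0.0536% in the other tumours; 5 of its 12 genes fell in CP2 versus P1 and none rose.

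Serpinh1 (chr7:99345376-99353239, minus strand), the endoplasmic reticulum chaperone known as Hsp47 that binds procollagen, was highest in CP1. Its levels were 377, 213 and 265 CPM in P1, 894, 574 and 651 CPM in CP1 and 139, 181, 166 and 290 CPM in CP2. The CP1 tumours lay above all others, while P1 and CP2 overlapped. CP1 versus P1 gave a log2 fold change of 1.31 ± 0.30 (adjusted p = 0.00546) and CP2 versus CP1 gave -1.87 ± 0.28 (adjusted p = 5.690e-04). In CP2 versus P1 it was -0.56 ± 0.28 (adjusted p = 0.11), and -0.82 without CP2 replicate 4 (adjusted p = 0.0183). Of 17 other genes of collagen folding, all of which were tested, 12 rose and 1 fell in CP1 versus P1, 12 rose and 2 fell in CP2 versus P1, and 2 rose and 6 fell in CP2 versus CP1. Plod1, a lysyl hydroxylase of collagen, had a pattern like that of Serpinh1 with 66.8 ± 16 CPM in P1 (SD, n = 3), 276 ± 21.6 in CP1 (SD, n = 3) and 103 ± 17 in CP2 (SD, n = 4). P4ha3, a prolyl hydroxylase subunit, did not: it stood at 4.62 ± 3.48 CPM in P1 and 77.4 ± 7.1 in CP2, a log2 fold change of 4.06 (adjusted p = 3.382e-05), and 4.87 without P1 replicate 1. A fibroblast list took 0.532 to 0.901% of counts in P1, 1.89 to 2.72% in CP1 and 1.23 to 1.46% in CP2. Its sum was mostly collagen transcripts, and other genes of the list ran differently: Pdgfra was at 42.5 to 89.8 CPM in CP1 and 212 to 257 CPM in CP2. By gene, 5 of the 12 rose and 1 fell in CP1 versus P1, and 3 rose and 4 fell in CP2 versus CP1. The part of fibroblasts in the Serpinh1 levels was not tested.

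Serpine2 (protease nexin-1; chr1:79794197-79861180, minus strand), which inhibits thrombin and urokinase, stood at 1050, 707 and 286 CPM in P1, with 87.2, 93.1 and 142 in CP1 and 49.3, 28.9, 28.7 and 57.2 in CP2. The 3 lines did not overlap. It was lower in CP1 than in P1 by a log2 fold change of -2.66 ± 0.46 (adjusted p = 0.00106) and lower in CP2 by -4.05 ± 0.44 (adjusted p = 3.835e-05). Its call in CP2 versus CP1, -1.39 ± 0.41 (adjusted p = 0.0204), was lost without CP1 replicate 3 (-1.14, adjusted p = 0.0778), without CP2 replicate 2 (-1.25, adjusted p = 0.0562) and without CP2 replicate 3 (-1.25, adjusted p = 0.055). Within P1, Serpine2 was in the same order as the summed lists of seminal vesicle (15, 6.86 and 1.94% of counts), fibroblast (0.901, 0.731 and 0.532%) and smooth muscle genes (0.264, 0.131 and 0.101%). That order was shared by 2 of 12, 7 of 12 and 8 of 9 of their genes. With P1 replicates 1 and 2 left out, P1 rests on replicate 3 at 286 CPM, and the log2 fold change was -1.44 in CP1 versus P1 (adjusted p = 0.0266) and -2.83 in CP2 versus P1 (adjusted p = 6.378e-04). The part of these tissues in the Serpine2 level was not tested.

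Serpine3, a clade E member of little-known function, stayed between 0.0465 and 0.499 CPM.

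Of the genes of plasminogen activation outside the family, 6 of 9 were tested. In CP1 versus P1, 1 rose and 1 fell, and in CP2 versus P1 and in CP2 versus CP1, 2 rose and 2 fell. Plat, the tissue-type activator and a target of Serpine2, was at 157, 154 and 122 CPM in P1, with 378, 295 and 198 in CP1 and 445, 450, 439 and 452 in CP2. The lines did not overlap, and the log2 fold change in CP2 versus P1 was 1.63 ± 0.19 (adjusted p = 7.408e-05). Plaur, the urokinase receptor, ran the other way, from 99.1 ± 22.9 CPM in P1 (SD, n = 3) to 62.9 ± 4.97 in CP1 (SD, n = 3) and 35.1 ± 2.48 in CP2 (SD, n = 4), and was called lower in all 3 comparisons. Plg, the plasminogen gene, was not tested. It had no count in P1 or CP1 and 84 in CP2, at 0.958 ± 1.89 CPM (SD, n = 4). That SD is above the mean, so the counts were very uneven over the CP2 tumours. Of the receptors that clear serpin complexes from the cell surface, 8 of 9 were tested; 4 rose and 3 fell in CP1 versus P1, and 4 fell in CP2 versus P1 and in CP2 versus CP1, with none higher. Lrp1, the main clearance receptor, was at 380, 223 and 262 CPM in P1, with 749, 805 and 726 in CP1 and 381, 312, 274 and 249 in CP2, with every CP1 tumour above the rest.

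**Figure D3:**
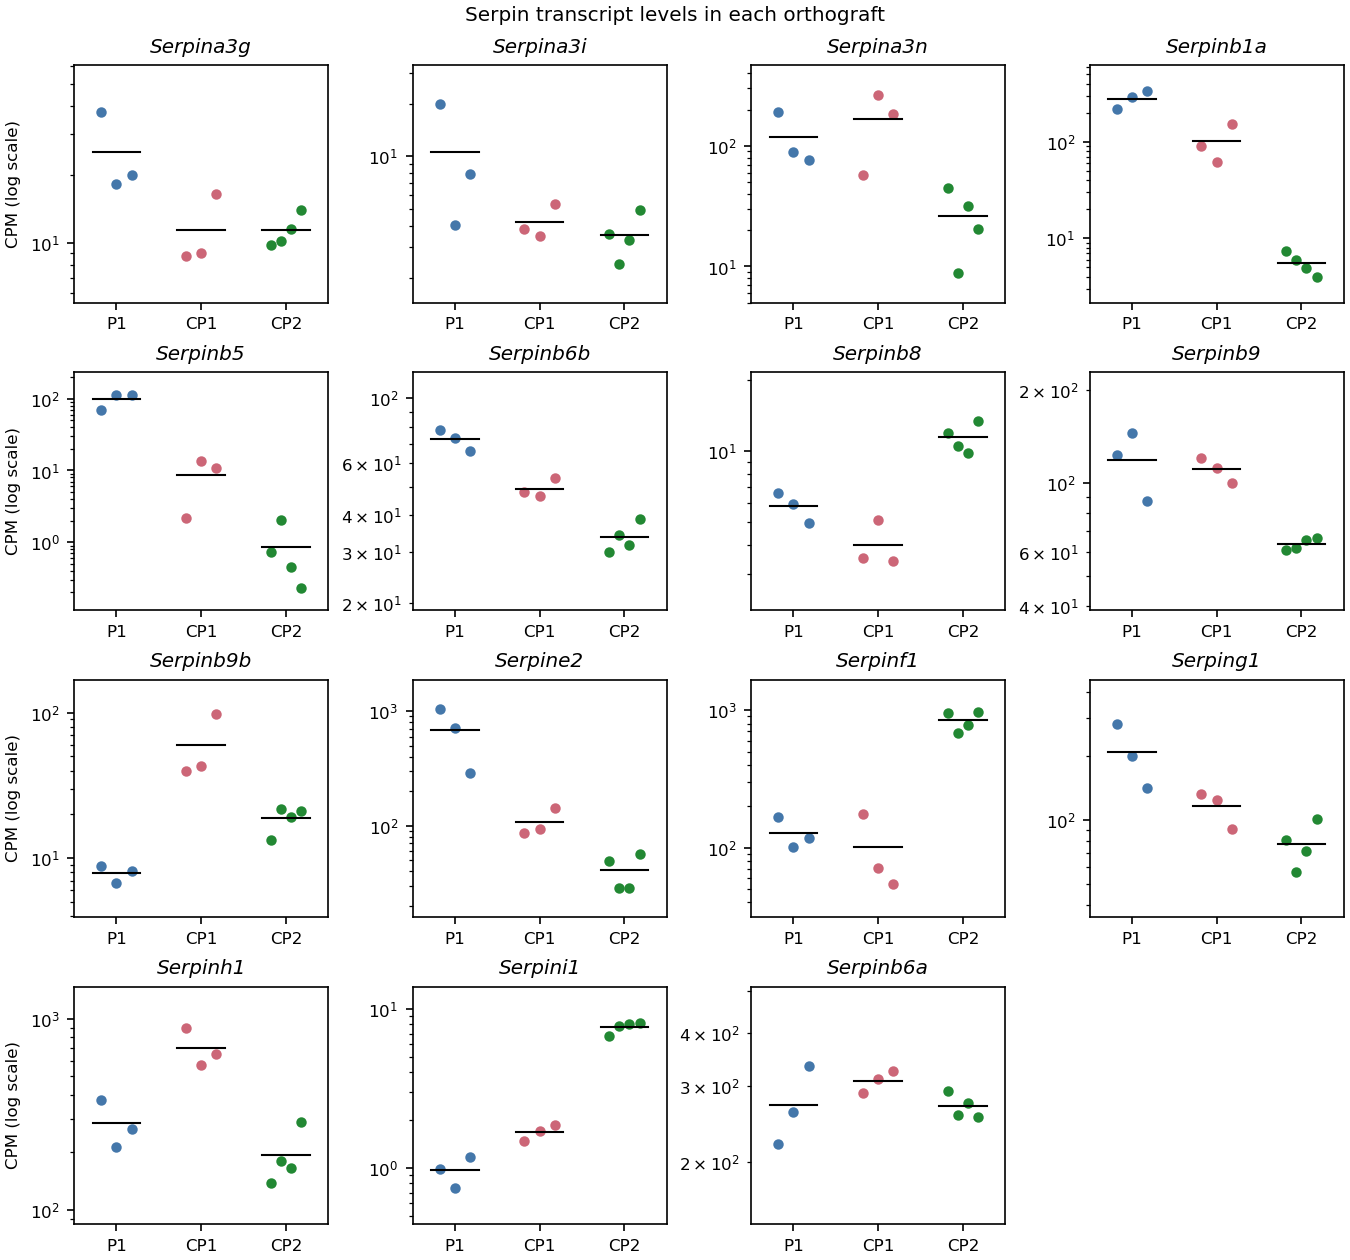
CPM in each tumour on a log scale for the 14 serpins that were called in at least 1 comparison and reached 5 CPM in a line, with Serpinb6a added as an abundant gene that was not called; the horizontal line is the mean of the line. CP2 points lie above all others for Serpinf1, Serpini1 and Serpinb8. They lie below all others for Serpinb9, Serpinb1a, Serpina3n, Serpine2, Serpinb6b and, narrowly, Serpinb5. The CP1 points lie above all others for Serpinh1 and Serpinb9b.

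Serping1 (C1 inhibitor; chr2:84765387-84775444, minus strand), which blocks the complement proteases C1r and C1s and plasma kallikrein, was at 281, 200 and 142 CPM in P1, with 133, 124 and 91 in CP1 and 80.5, 56.9, 71.7 and 101 in CP2. Every CP tumour was below every P1 tumour, and CP1 and CP2 overlapped. The log2 fold change in CP2 versus P1 was -1.42 ± 0.25 (adjusted p = 8.067e-04). In CP1 versus P1 it was -0.84 ± 0.27 (adjusted p = 0.0267), a call lost without P1 replicate 1 (-0.58, adjusted p = 0.0868), CP1 replicate 2 (-0.89, adjusted p = 0.0511) or CP1 replicate 3 (-0.69, adjusted p = 0.0962). CP2 versus CP1 was -0.58 (adjusted p = 0.0838), and became a call without P1 replicate 1 (adjusted p = 0.0479), P1 replicate 3 (adjusted p = 0.0488) or CP2 replicate 4 (-0.73, adjusted p = 0.0482). Of 19 tested coagulation and complement genes from a list of 22, 4 rose and 8 fell in CP1 versus P1, 3 rose and 12 fell in CP2 versus P1, and 2 rose and 6 fell in CP2 versus CP1. F3, tissue factor, which starts clotting, was at 55.1, 140 and 128 CPM in P1, with 6.85, 8.74 and 10.5 in CP1 and 4.27, 2.75, 3.74 and 3.3 in CP2, and its lines did not overlap. Masp1, a protease of the lectin pathway that Serping1 also inhibits, was at 9.13 ± 9.38 CPM in P1 (SD, n = 3), 131 ± 34 in CP1 (SD, n = 3) and 19.5 ± 2.78 in CP2 (SD, n = 4); its log2 fold change in CP1 versus P1 was 3.83 (adjusted p = 6.003e-04), and 5.12 without P1 replicate 1.

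Serpini1 (neuroserpin; chr3:75557547-75643495, plus strand), an inhibitor of tissue-type plasminogen activator best known from neurons, was low in all tumours but rose in CP2. It stood at 0.986, 0.749 and 1.17 CPM in P1, with 1.48, 1.72 and 1.86 in CP1 and 6.79, 7.8, 8.08 and 8.19 in CP2. The lines did not overlap, and the log2 fold change was 2.99 ± 0.21 in CP2 versus P1 (adjusted p = 3.096e-06) and 2.19 ± 0.20 in CP2 versus CP1 (adjusted p = 3.873e-05). The smaller difference of CP1 from P1, 0.80 ± 0.22 (adjusted p = 0.0123), was not called without P1 replicate 2 (0.63, adjusted p = 0.0539). A list of nerve genes took 0.0127 to 0.0151% of counts in CP2, below its 0.0158 to 0.0309% in the other tumours. Serpini2 had no count in any tumour.

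The clade B genes lie in a cluster of 11 on chromosome 1 and a cluster of 15 on chromosome 13. Of the chromosome 1 cluster 3 were tested, Serpinb5, Serpinb8 and Serpinb2. Serpinb5 (maspin; chr1:106861173-106883348, plus strand), a non-inhibitory epithelial serpin described as a tumour suppressor, was at 68.8, 114 and 113 CPM in P1, with 2.16, 13.5 and 10.7 in CP1 and 0.72, 2.06, 0.456 and 0.233 in CP2. The lines did not overlap, although CP1 replicate 1 was close to CP2 replicate 2. The log2 fold change was -3.49 ± 0.66 in CP1 versus P1 (adjusted p = 0.00184), -6.84 ± 0.73 in CP2 versus P1 (adjusted p = 3.460e-05) and -3.35 ± 0.70 in CP2 versus CP1 (adjusted p = 0.00364). Without CP2 replicate 2 the values against P1 and CP1 were -7.72 and -4.23.

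Within CP1, Serpinb5 had the same order as all 9 genes of the urothelial list, which took 0.00768, 0.149 and 0.0617% of counts, and as 4 of the 10 basal epithelial genes (Krt5, Krt15, Trp63 and Itgb4). The basal list as a whole took 0.0789, 0.169 and 0.166% there. With CP1 replicates 2 and 3 left out, the log2 fold change of CP2 versus CP1 was -1.33 (adjusted p = 0.248) and was no longer called; CP1 is then 1 tumour, assumed to vary like the others. In P1, where Serpinb5 stood high, the basal list took 0.0985 to 0.122%, and its genes differed. Krt5 was at 28.7, 10.5 and 9.89 CPM in P1, while Krt14 was at 228, 164 and 345 CPM there against 9.19, 13.6 and 22.6 in CP1. In CP1 versus P1, 5 of the 10 basal genes rose and 3 fell. The luminal list took 1.06 to 2.2% of counts in P1 and at most 0.22% in any CP tumour, so Serpinb5 and the luminal genes were both high in P1. The part of these cell types in the levels of Serpinb5 was not tested.

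Serpinb8, an intracellular inhibitor of furin and similar proteases, went in the other direction. It was at 6.62, 5.93 and 4.96 CPM in P1, with 3.5, 5.07 and 3.4 in CP1 and 11.9, 10.5, 9.81 and 13.4 in CP2. All CP2 tumours lay above all others, with log2 fold changes of 0.97 ± 0.20 against P1 (adjusted p = 0.00226) and 1.51 ± 0.20 against CP1 (adjusted p = 3.300e-04). In CP1 versus P1 it was -0.55 (adjusted p = 0.0587), and it was called without P1 replicate 3 (-0.66, adjusted p = 0.036) and without CP1 replicate 2 (-0.76, adjusted p = 0.0172). Serpinb2, an inhibitor of urokinase, was not called and stayed between 0.325 and 2.47 CPM. The squamous cell serpins Serpinb3a to Serpinb3d, Serpinb7, Serpinb11, Serpinb12 and Serpinb13 were not tested, and none was above 0.402 CPM in a tumour.

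The 15 members on chromosome 13 span chr13:32842092-34002794, and 8 were tested. Serpinb1a, Serpinb6b and Serpinb9 fell in CP2 versus P1, while Serpinb9b, Serpinb1b, Serpinb9e and Serpinb9g, which lie between Serpinb9 and Serpinb6d, rose in CP1 versus P1.

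**Figure D4:**
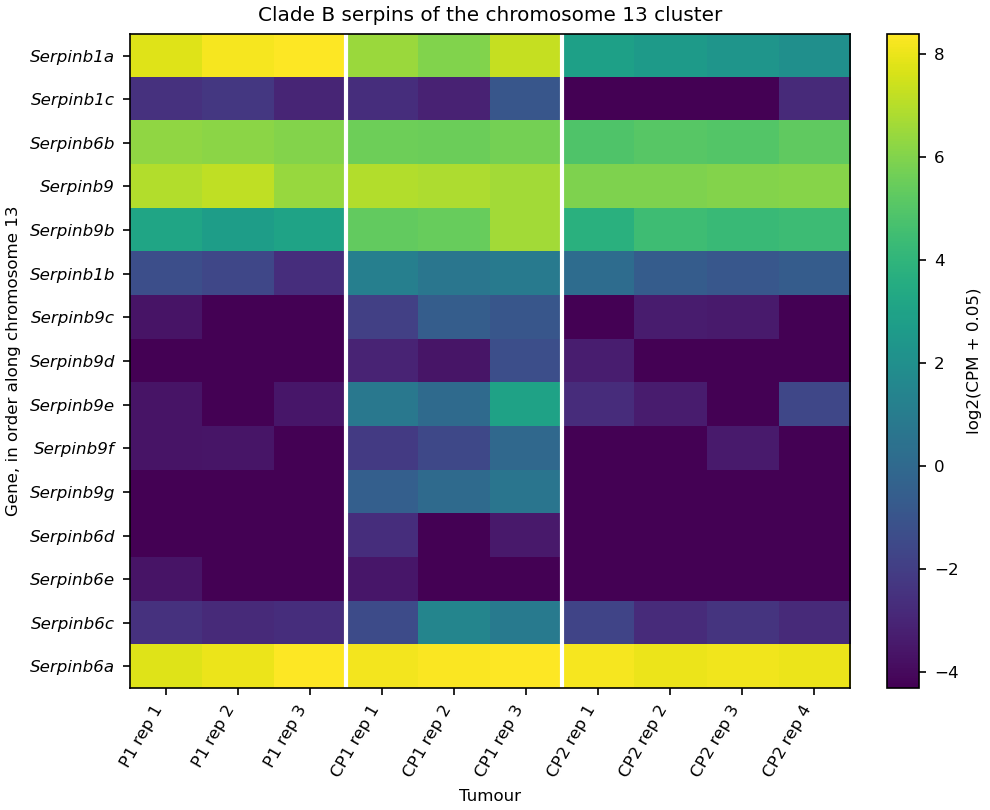
log2 of CPM with 0.05 added, for the 15 clade B serpins on chromosome 13 (rows, in chromosome order) in the 10 tumours (columns; white lines separate P1, CP1 and CP2). The rows from Serpinb9b to Serpinb9g are brighter in the CP1 columns, and the Serpinb1a row darkens from P1 through CP1 to CP2.

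Serpinb1a (chr13:32842092-32851185, minus strand), which inhibits neutrophil elastase and cathepsin G, was at 216, 292 and 332 CPM in P1, with 89.3, 62.2 and 153 in CP1 and 7.3, 5.99, 4.88 and 4 in CP2. The lines did not overlap. Its log2 fold change was -1.46 ± 0.32 in CP1 versus P1 (adjusted p = 0.00398), -5.66 ± 0.34 in CP2 versus P1 (adjusted p = 1.208e-06) and -4.20 ± 0.33 in CP2 versus CP1 (adjusted p = 1.383e-05). These calls were kept with each tumour left out in turn. Luminal genes took 1.06, 1.57 and 2.2% of counts in P1 replicates 1 to 3, the same order as Serpinb1a. That order was shared by 7 of the 15 listed genes. It was not particular to luminal genes, as the basal, squamous, urothelial and hepatocyte lists, each summed, had it in P1 too. Neutrophil genes took 0.0326 to 0.073% in P1 against 0.00213 to 0.0132% in the CP tumours, but Ltf, lactoferrin, made up most of the P1 share, at 472, 716 and 289 CPM. By gene, 3 of the 10 neutrophil genes rose and 1 fell in CP1 versus P1, and none rose and 3 fell in CP2 versus P1. The part of any of these cell types in the Serpinb1a level was not tested.

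Serpinb9 (chr13:33003250-33017957, plus strand) encodes the intracellular inhibitor of granzyme B that protects cells from their own or a killer cell's granules. It was at 123, 145 and 87.1 CPM in P1, with 120, 112 and 100 in CP1 and 60.9, 61.8, 65.4 and 66.3 in CP2. All CP2 tumours were below all others, and P1 and CP1 overlapped. The log2 fold change was -0.90 ± 0.15 in CP2 versus P1 (adjusted p = 5.774e-04) and -0.80 ± 0.15 in CP2 versus CP1 (adjusted p = 0.00194). Against P1, CP1 gave -0.10 (adjusted p = 0.653), and -0.29 without P1 replicate 3 (adjusted p = 0.0401).

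Serpinb9 inhibits granzyme B, and a wider list of leukocyte granule genes, with perforin and mast cell proteases among them, was measured in the same tumours. Of 16 tested genes from that list of 18, none rose and 10 fell in CP1 versus P1, 9 rose and 6 fell in CP2 versus P1, and 10 rose and 4 fell in CP2 versus CP1. Prf1, perforin, which opens the way for granzymes, was at 7.76, 9.36 and 11.7 CPM in P1, with 0.424, 1.56 and 1.5 in CP1 and 159, 222, 169 and 153 in CP2. Gzmb was at 90.2 ± 18.6 CPM in CP2 (SD, n = 4), 19.1 ± 3.35 in P1 (SD, n = 3) and 0.801 ± 0.511 in CP1 (SD, n = 3). The CP2 tumours, with most perforin and granzyme B transcript, were thus those with least Serpinb9 transcript. Between CP1 and P1 there was no such opposite order. Perforin and granzyme B were lower in CP1 than in P1, and Serpinb9 overlapped between these lines (log2 fold change -0.10, not called). A list of lymphocyte and NK cell genes took 0.0113 to 0.0124% of counts in CP2, 0.00479 to 0.00758% in P1 and 0.00256 to 0.00398% in CP1. Il2rb, a cytokine receptor chain, at 38.4 to 50.1 CPM, and the pan-leukocyte gene Ptprc, at 34.9 to 48.2 CPM, made up most of the CP2 share. Of the 14 tested genes of that list, 2 rose and 5 fell in CP2 versus P1, and 10 rose and none fell in CP2 versus CP1. The granzymes C to G are near-identical copies that counting could split.

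Serpinb6a, an intracellular inhibitor of cathepsin G and trypsin-like proteases (chr13:33917918-34002794, minus strand), was not called in any comparison and ranged from 220 to 334 CPM over the 10 tumours. It overlaps Nqo2, Ripk1 and a further gene on the opposite strand, and without knowledge of strand their reads cannot be told apart. Its relative Serpinb6b (chr13:32965209-32979067, plus strand) was at 77.8, 73.4 and 65.9 CPM in P1, with 47.8, 46.3 and 53.6 in CP1 and 29.9, 34.1, 31.6 and 38.8 in CP2. The lines did not overlap and the steps were small but even, with log2 fold changes of -0.56 ± 0.12 (adjusted p = 0.003), -1.11 ± 0.11 (adjusted p = 1.867e-05) and -0.55 ± 0.11 (adjusted p = 0.00256) in CP1 versus P1, CP2 versus P1 and CP2 versus CP1.

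The group that rose in CP1 is, apart from Serpinb1b, a set of Serpinb9 copies. Of these, Serpinb9e and Serpinb9g passed the filter on low counts through CP1 alone, so their rise there was fixed in advance. Serpinb9b (chr13:33027416-33041884, plus strand), an inhibitor of granzyme M, was at 8.78, 6.74 and 8.21 CPM in P1, with 39.8, 42.8 and 98.6 in CP1 and 13.3, 21.7, 19.3 and 21 in CP2. The lines did not overlap, and the log2 fold change was 2.93 ± 0.35 in CP1 versus P1 (adjusted p = 1.110e-04), 1.25 ± 0.32 in CP2 versus P1 (adjusted p = 0.00778) and -1.68 ± 0.31 in CP2 versus CP1 (adjusted p = 0.00181). Serpinb9e had 2 counts in all P1 tumours together, 274 in CP1 and 9 in CP2. It was 1.63, 1.01 and 7.98 CPM in CP1 and at most 0.279 CPM elsewhere, and the ratio of CP1 to P1 was 150, with an exact 95% binomial interval of 41.2 to 1250 that covers counting error only. The fitted log2 fold change of Serpinb9e in CP1 versus P1 was 7.05 ± 1.22 (adjusted p = 0.00103), and 5.63 without CP1 replicate 3, its highest tumour. In CP2 versus CP1 it was -4.96 ± 0.93 (adjusted p = 0.00209), -3.55 without CP1 replicate 3 and -6.04 without CP2 replicate 4.

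Serpinb9g (chr13:33484790-33496004, plus strand) had no count in P1 or CP2 and 87 in CP1, at 0.671, 1.01 and 1.5 CPM. Taking 3 counts over a line as the floor, it was at least 31.8-fold higher in CP1 than in P1 (adjusted p = 0.00157). It was at least 28.8-fold lower in CP2 than in CP1 (adjusted p = 0.00185). Because Serpinb9g and Serpinb9e passed the filter through CP1 alone, their adjusted p-values add no support to these differences. Serpinb1b, a relative of Serpinb1a within the same stretch, was at 0.253 ± 0.132 CPM in P1 (SD, n = 3), 1.83 ± 0.315 in CP1 (SD, n = 3) and 0.694 ± 0.261 in CP2 (SD, n = 4), the same order of lines as Serpinb9b. It was called in all 3 comparisons, with a log2 fold change of 2.81 in CP1 versus P1 (adjusted p = 4.271e-04).

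Serpinb9c, Serpinb9d and Serpinb9f in the same stretch, and Serpinb6c beyond Serpinb6d and Serpinb6e, had too few counts to pass the filter. Their levels in CP1 were 0.212, 0.617 and 0.486 CPM for Serpinb9c, 0.0707, 0.0325 and 0.365 CPM for Serpinb9d, 0.177, 0.292 and 0.932 CPM for Serpinb9f, and 0.318, 2.7 and 1.74 CPM for Serpinb6c. With no filter on low counts they were called higher in CP1 than in P1, by log2 fold changes of 4.82, 5, 4.13 and 3.8 (adjusted p = 0.00147, 0.0383, 0.00479 and 0.00115). Serpinb6d and Serpinb6e had 4 and 2 counts in all, and Serpinb1c stayed at or below 0.486 CPM.

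Within the interval of the cluster lie 20 genes that are not members, mostly pseudogenes, and 4 were tested. Of these 3 rose in CP1 versus P1 and 3 in CP2 versus P1, with 22.4 and 28.3% of all tested genes higher. Nqo2, Ripk1 and 1110046J04Rik, which are among the tested genes, overlap Serpinb6a on the opposite strand. So few genes do not describe the interval. Gm25043, a small RNA gene between the Serpinb9 copies and Serpinb6 genes, was at 2.05, 3.25 and 3.85 CPM in CP1 and had no count in P1 or CP2. It passed the filter through CP1 alone, so its rise there was fixed in advance. Several of the copies share sequence, so that counting could move reads between them. Of the 50-base words of the transcripts, Serpinb9f shared 78.7% with another gene, Serpinb9g 54.8%, Serpinb9d 30.8% and Serpinb9e 28.4%, whereas Serpinb9b shared 5.38% and Serpinb9 0.378%. The levels of single genes among Serpinb9d to Serpinb9g are uncertain for this reason.

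The promoters of these genes are shown because the copies that rose together can be compared letter by letter. RefSeq promoter windows (GRCm38.p6) were found for 52 of the 61 members, with 61 windows in all. Each line gives the 250 bases before the annotated start, 5′ to 3′ on the gene's strand. Capitals mark a match to either motif described after the sequences. The windows are chr13:33004291-33004540 for Serpinb9 (plus strand; its GENCODE gene begins further upstream), chr13:33027164-33027413 for Serpinb9b (plus), chr13:33159755-33160004 for Serpinb9c (minus), chr13:33249358-33249607 for Serpinb9e (plus) and chr13:33484540-33484789 for Serpinb9g (plus).
Serpinb9: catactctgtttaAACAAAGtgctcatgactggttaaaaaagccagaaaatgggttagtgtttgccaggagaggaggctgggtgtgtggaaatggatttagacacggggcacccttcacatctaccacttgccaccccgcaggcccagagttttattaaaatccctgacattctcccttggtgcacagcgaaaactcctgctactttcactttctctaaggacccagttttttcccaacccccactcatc
Serpinb9b: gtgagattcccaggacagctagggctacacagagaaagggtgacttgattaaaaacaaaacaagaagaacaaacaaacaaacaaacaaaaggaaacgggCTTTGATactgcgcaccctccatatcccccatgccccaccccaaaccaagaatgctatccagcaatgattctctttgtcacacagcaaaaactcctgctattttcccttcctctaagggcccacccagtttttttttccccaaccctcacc
Serpinb9c: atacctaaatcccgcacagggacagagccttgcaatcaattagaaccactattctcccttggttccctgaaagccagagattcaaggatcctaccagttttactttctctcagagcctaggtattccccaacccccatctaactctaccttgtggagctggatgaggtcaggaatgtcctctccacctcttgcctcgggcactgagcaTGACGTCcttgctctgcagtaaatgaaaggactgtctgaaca
Serpinb9e: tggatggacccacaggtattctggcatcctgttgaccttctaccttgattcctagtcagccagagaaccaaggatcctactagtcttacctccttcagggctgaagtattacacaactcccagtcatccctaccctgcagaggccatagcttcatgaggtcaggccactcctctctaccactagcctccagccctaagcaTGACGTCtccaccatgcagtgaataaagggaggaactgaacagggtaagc
Serpinb9g: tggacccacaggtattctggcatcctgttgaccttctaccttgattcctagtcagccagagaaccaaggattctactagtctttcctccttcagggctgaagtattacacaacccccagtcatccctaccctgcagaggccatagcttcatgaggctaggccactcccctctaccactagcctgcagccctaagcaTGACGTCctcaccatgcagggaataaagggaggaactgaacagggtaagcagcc

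Along the part that could be aligned, the windows of Serpinb9e and Serpinb9g were identical at 95.9% of 246 bases, those of Serpinb9e and Serpinb9f at 99.1% of 235 bases, and those of Serpinb9c and Serpinb9e at 76.9% of 195 bases. Serpinb9 and Serpinb9b were identical at 78.7% of 150 bases and aligned with Serpinb9e over only 16 and 14 bases. By length of alignment the windows fall in 2 groups, 1 of Serpinb9 and Serpinb9b and 1 of Serpinb9c, Serpinb9e, Serpinb9f and Serpinb9g. The groups are not fully apart, as Serpinb9 and Serpinb9c were identical at 77.6% of 49 bases. The windows depend on the annotated starts, which may not lie at matching places, so a short alignment need not mean an unlike promoter. The genes of the second group were near 0 outside CP1, and those of the first group were transcribed in all lines. A link between window and level was not tested. The word TGACGTC, part of the cAMP response element, was searched on both strands after the sequences and values had been seen. It occurs in the windows of Serpinb9c, Serpinb9e, Serpinb9f and Serpinb9g and in no other serpin window, 4 of 61 (6.56%), against 2.78% of all 32851 windows. A TCF/LEF word, CTTTG followed by a pair of letters that are each A or T, on either strand, marks where partners of beta-catenin can bind. It occurs in the windows of Serpinb9 and Serpinb9b and in 27.9% of serpin windows, against 14.8% of all. The matches of the 2 motifs do not overlap in the windows shown. Serpin windows include near-copies, which are not independent, and a match is a description of letters, not a site.

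The clade A serpins, 23 genes on chromosome 12 (chr12:103614786-104414329), 9 of them tested, and Serpina7 on chromosome X, are mostly secreted. Serpina3n (chr12:104406729-104414329, plus strand), the main mouse antichymotrypsin-like serpin and an acute-phase inhibitor of granzyme B and elastase, was the most abundant of them. It was at 190, 88.8 and 75.8 CPM in P1, with 57.7, 263 and 183 in CP1 and 44.7, 8.88, 31.8 and 20.5 in CP2. Every CP2 tumour was below all others, and P1 and CP1 overlapped. The log2 fold change was -2.16 ± 0.60 in CP2 versus P1 (adjusted p = 0.0111), -2.67 ± 0.60 in CP2 versus CP1 (adjusted p = 0.00576) and 0.51 ± 0.63 in CP1 versus P1 (adjusted p = 0.543).

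Within CP1, Serpina3n had the order of all 9 urothelial genes and of the same 4 of 10 basal genes as Serpinb5. With CP1 replicates 2 and 3 left out, CP2 versus CP1 was -1.13 (adjusted p = 0.288), and CP1 versus P1 was -1.03 (adjusted p = 0.396). Within P1 it had the order of the seminal vesicle list summed, which 2 of its 12 genes had, and with P1 replicates 1 and 2 left out CP2 versus P1 was -1.55 (adjusted p = 0.15). The part of these tissues in the Serpina3n level was not tested.

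Serpina3g, an intracellular relative that inhibits cathepsins, was at 37.5, 18.1 and 20 CPM in P1, with 8.8, 9.03 and 16.4 in CP1 and 9.82, 10.2, 11.5 and 14 in CP2. Every CP tumour was below every P1 tumour, and CP1 and CP2 overlapped, with a log2 fold change of 0 ± 0.30 between them (adjusted p = 0.994). It was -1.15 ± 0.30 in CP2 versus P1 (adjusted p = 0.00815) and -1.14 ± 0.32 in CP1 versus P1 (adjusted p = 0.0159). The latter call was lost without P1 replicate 1 (-0.75, adjusted p = 0.0578), CP1 replicate 1 (-0.99, adjusted p = 0.0541) or CP1 replicate 2 (-1, adjusted p = 0.0576). Of 10 cysteine cathepsins, 2 rose and 3 fell in CP1 versus P1, 3 rose and none fell in CP2 versus P1, and 4 rose and none fell in CP2 versus CP1. Ctsc, which activates granzymes, stood at 150 ± 12.4 CPM in P1 (SD, n = 3), 104 ± 41.1 in CP1 (SD, n = 3) and 499 ± 53.9 in CP2 (SD, n = 4).

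Serpina3i was at 19.9, 4.05 and 7.88 CPM in P1, with 3.85, 3.47 and 5.35 in CP1 and 3.6, 2.41, 3.29 and 4.89 in CP2. P1 replicate 1 stood far above the others and the lines overlapped. Its call in CP2 versus P1 (-1.58 ± 0.47, adjusted p = 0.0152) was lost without P1 replicate 1 (-0.77, adjusted p = 0.091), and its value in CP1 versus P1 (-1.33, adjusted p = 0.0545) became a call without P1 replicate 2 (-1.74, adjusted p = 0.00926). The neighbouring pseudogene Serpina3h, which shares sequence with it, was at 21.1, 4.05 and 7.45 CPM in P1, close to Serpina3i tumour by tumour, so reads may have been divided between them.

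Serpina7, the thyroxine-binding globulin, was at 2.74, 4.49 and 6.72 CPM in P1, with 6.11, 1.14 and 0.729 in CP1 and between 0.0456 and 0.0514 CPM in CP2, which is 1 count in each CP2 tumour. It fell in CP2 against P1 by 6.46 on the log2 scale (adjusted p = 2.120e-04) and against CP1 by 5.66 (adjusted p = 9.617e-04), or 4.15 without CP1 replicate 1. Against P1, CP1 gave a log2 fold change of -0.80 (adjusted p = 0.357), and -2.31 without CP1 replicate 1 (adjusted p = 0.00165). Serpina3f, a further antichymotrypsin-like copy, was at 3.65 ± 1.11 CPM in P1 (SD, n = 3), 1.46 ± 0.508 in CP1 (SD, n = 3) and 0.913 ± 0.433 in CP2 (SD, n = 4), and its lines CP1 and CP2 overlapped. Its log2 fold change was -1.99 in CP2 versus P1 (adjusted p = 0.00273) and -1.32 in CP1 versus P1 (adjusted p = 0.035), and the second call was lost with any tumour of P1 or CP1 left out except P1 replicate 3, with adjusted p from 0.0527 to 0.0995.

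Serpina3m and Serpina3c, antichymotrypsin-like copies of low level, were called once each. Serpina3m was higher in CP1 than in P1 by a log2 fold change of 1.46 (adjusted p = 0.0403), a call lost with any of 6 tumours left out in turn (P1 replicates 2 and 3, CP1 replicates 2 and 3, CP2 replicates 3 and 4; adjusted p from 0.0512 to 0.134). In CP2 versus CP1 it was -0.98 (adjusted p = 0.117), and -1.38 without CP1 replicate 1 (adjusted p = 0.0188). Serpina3c was lower in CP2 than in CP1 by -2.32 (adjusted p = 0.0433). That call was lost with any of 7 tumours left out in turn (P1 replicates 1 and 2, CP1 replicates 1 and 2, CP2 replicates 1, 2 and 4; adjusted p from 0.0508 to 0.185), and the value was -3.56 without CP2 replicate 3 and -1.59 without CP1 replicate 2. In CP2 versus P1 it was -1.08 (adjusted p = 0.294), and -2.32 without CP2 replicate 3 (adjusted p = 0.0352). Serpina1f, an epididymal serpin, reached 3.9 CPM in P1 replicate 2 and was not called. Serpina5, protein C inhibitor, and Serpina9, a serpin of B cells, did not pass the filter; with no filter they were called lower than P1 in CP1 (log2 fold changes of -6.62 and -4.41, adjusted p = 0.041 and 0.00431) and in CP2 (-4.84 and -3.65, adjusted p = 0.0446 and 0.00482), and most Serpina5 reads were from P1 replicate 1, at 1.29 CPM. Serpina16 was seen in P1 replicate 2 and CP1 replicate 2 alone, at 0.686 and 1.59 CPM.

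Several of the remaining clade A genes and clotting serpins, known as liver products, were highest in 1 tumour. In a set chosen after its values were seen, of 10 serpins made mainly by the liver, all 10 were highest in CP2 replicate 3. Together they had 595 counts there (27.1 CPM) and between 6 and 52 counts in each other tumour, at most 1.69 CPM. The set leaves out members that did not follow. Serpina6, the corticosteroid-binding globulin of the liver, had no count in that tumour and 1 count in CP2 replicate 4. Serpina3a and Serpina3b had none in any CP2 tumour, and Serpina12 and Serpina3j had 1 count each in CP2 replicate 3. Serpina7, the thyroxine-binding globulin, had 1 count in CP2 replicate 3, against 2.74 to 6.72 CPM in P1. Serpina3n and Serping1 are outside the set too, at 31.8 and 71.7 CPM in CP2 replicate 3 and up to 263 and 281 CPM elsewhere. Alb, albumin, the defining product of hepatocytes, was at 133 CPM in CP2 replicate 3 and at most 2.98 CPM in the others. The hepatocyte list was not low in P1 (0.03 to 0.0368% of counts), but there Apob made up most of it, at 314, 331 and 335 CPM, with Alb at 0.256 to 0.437 CPM.

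**Figure D5:**
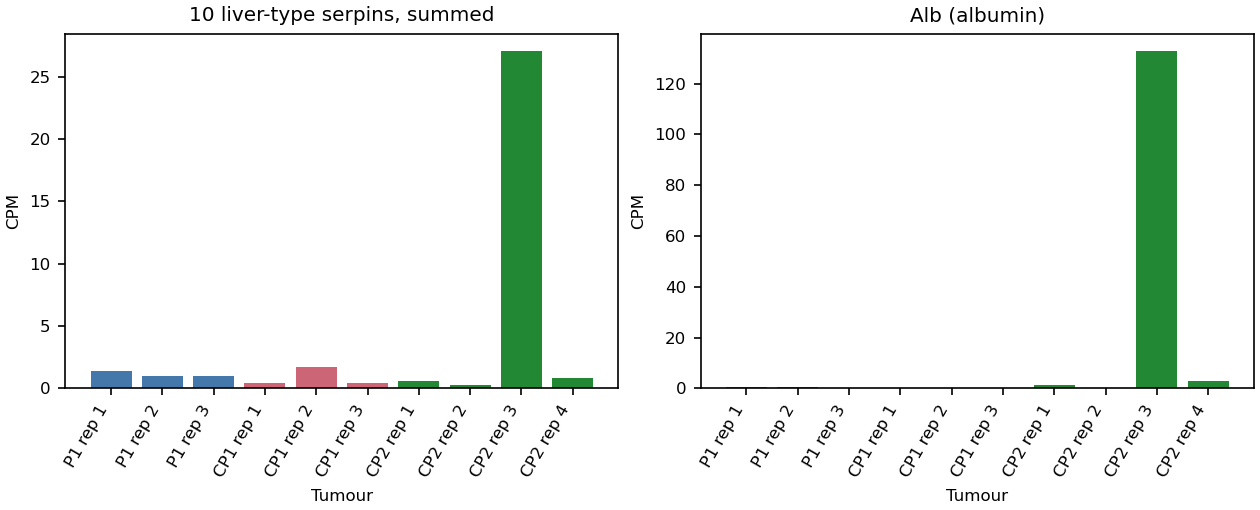
Summed CPM of 10 liver-type serpins (left) and CPM of Alb (right) in each tumour, with bars from 0. CP2 replicate 3 reaches 27.1 CPM for the serpins and 133 CPM for Alb, and the other 9 tumours stay at or below 1.69 and 2.98 CPM.

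Examples are Serpina1b, an alpha-1-antitrypsin, at 2.28 CPM in CP2 replicate 3 and at most 0.986 elsewhere, Serpinc1 (antithrombin) at 3.15 CPM against at most 0.365, and Serpinf2 (antiplasmin) at 2.1 CPM against at most 0.183. Serpind1 (heparin cofactor II), which is not in the set of 10, was at 1.6 CPM there and at most 1.36 in the rest. Copies of Serpina1 share up to 79.3% of their 50-base words with other genes and are uncertain individually. Serpina3k, which encodes a kallikrein-binding serpin, was at 13.9 CPM in CP2 replicate 3, at most 0.419 CPM in the other CP2 tumours and at most 1.1 CPM in P1 and CP1. Its call in CP2 versus P1 (6.61 ± 2.31, adjusted p = 0.0327) rests on this tumour: without CP2 replicate 3 the gene did not pass the filter and could not be tested. That call was also lost without P1 replicate 1 (adjusted p = 0.0863), P1 replicate 2 (adjusted p = 0.0906) or P1 replicate 3 (adjusted p = 0.0892).

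Beside the serpins, other families of protease inhibitors and proteases of the epithelial surface were measured. Of 25 tested inhibitors of other families from a list of 31, 6 rose and 6 fell in CP1 versus P1, 5 rose and 12 fell in CP2 versus P1, and 1 rose and 7 fell in CP2 versus CP1. Over all tested genes, 22.4% rose and 22.4% fell in CP1 versus P1, near the share of this list. The shares were 28.3 and 28.4% in CP2 versus P1, and 21.3 and 21.9% in CP2 versus CP1. Timp2, a metalloproteinase inhibitor, rose from 620 ± 78.9 CPM in P1 (SD, n = 3) to 1780 ± 203 in CP1 (SD, n = 3) and 1960 ± 239 in CP2 (SD, n = 4). Pi15, a secreted protein described as a trypsin inhibitor, was at 104 ± 34.7 CPM in CP1, against 2.77 ± 0.589 in P1 and 4.52 ± 4.37 in CP2, so that it was high in the same line as the Serpinb9 copies. Its log2 fold change in CP2 versus CP1 was -4.54 (adjusted p = 3.316e-04), and -5.44 without CP2 replicate 1.

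Of 11 tested membrane-anchored serine proteases and Kunitz inhibitors from a list of 14, 2 rose and 6 fell in CP1 versus P1, 2 rose and 9 fell in CP2 versus P1, and 1 rose and 7 fell in CP2 versus CP1. Spint2, the Kunitz inhibitor of matriptase and hepsin, was at 846, 1070 and 1560 CPM in P1, with 34.5, 101 and 59.9 in CP1 and 37.7, 32.7, 38.3 and 28.3 in CP2. Every P1 tumour was far above every CP tumour, with a log2 fold change of -4.15 ± 0.39 in CP1 versus P1 (adjusted p = 2.525e-05) and -5.08 ± 0.36 in CP2 versus P1 (adjusted p = 3.096e-06). Within CP1, Spint2 had the same order as Serpinb5. Like Serpinb5, Spint2 was high where Epcam was high, and the part of epithelial content in its level was not tested.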

How the data were processed

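RNA sequencing of 10 orthografts was used. The deposited values are whole-number read counts per Ensembl gene, not normalised, 1 file per tumour. The authors named HTSeq 0.6.0, TopHat2 2.1.0 and Bowtie2 2.2.6.0, DESeq2 1.14.1 in R 3.2.3, FastQC 0.11.4 and the build GRCm38.p3, per the submitters' processing notes. Strand and annotation are not given in the sources used here. Of 47069 IDs, 46574 matched GENCODE M21 (GRCm38), which gave symbols, coordinates and exon lengths. Of 68 Serpin symbols, 7 were not protein-coding and were left out.

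Counts were fitted with edgeR 4.0.16 (R 4.3.3, limma 3.58.1): filterByExpr (minimum count 10, minimum total 15), TMM, and 1 quasi-likelihood fit over all tumours with a mean per line. Tested on simulated data, the fit recovered large changes but missed part of the small ones, and the criterion for passing was reset after that was seen, so a gene not called may still differ. A fold change is log2 with ± SE, where SE is the fold change over the square root of F; CPM use TMM-scaled totals. A count of 3 is worth 0.0924 to 0.154 CPM. Labels do not tie libraries to animals, so p-values measure the spread between these samples, which may be technical. No 2 libraries held identical values.

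Serpins called in any comparison and reaching a mean of 5 CPM in a line are given in every tumour, and other members by ranges. From each of 8 companion lists, called genes with the smallest adjusted p were eligible. The members and the companion and marker lists were chosen with earlier results of these data known. Alternatives were RLE scaling, DESeq2 1.42.0, no filter, fits of the lines compared, leaving out tumours, scaling without seminal vesicle genes and a test against a 2-fold change. Part of the genotypes and the values of 1 family member, which stays in the counts over the family, are not reported here.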

Additional observations from a re-analysis of the deposited data

Results flagged for a closer look

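In CP2, each of 37 serpins with over 3 counts in a tumour was examined for a tumour that stands alone. In 12, the highest tumour was far from the other 3, and in all 12 it was CP2 replicate 3. Some of these genes, such as Serpina1a, Serpina1c, Serpina10 and Serpina11, had over 3 counts in CP2 replicate 3 alone. They entered the set through that tumour, so its standing apart was largely fixed for them. The number of flagged genes was not tested against chance. The levels there were 13.9 CPM for Serpina3k, 3.15 for Serpinc1, 2.92 for Serpina1f, 2.28 for Serpina1b, 2.1 for Serpinf2, 1.64 for Serpina1a, 1.6 for Serpind1, 1.46 for Serpina1c, 1.37 for Serpina1d, 0.456 for Serpina10, and 0.411 for both Serpina11 and Serpina1e. The medians of these genes over CP2 were between 0 and 0.312 CPM. Of 22 gene lists examined in the same way, the hepatocyte list alone had a tumour apart, at 0.0352% of counts in CP2 replicate 3 against a median of 0.00302%. The genes share a tumour and are not independent of each other. The groups of 3 tumours were not examined.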

How the results depend on the processing

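Scaling by RLE factors, scaling without the seminal vesicle list and no filter on low counts kept the direction and call of all 66 log2 fold changes of the 22 named serpins, and DESeq2 kept 61 of 63. With each tumour left out in turn, the serpins called ranged from 6 to 9 higher and 4 to 9 lower in CP1 versus P1 (7 and 7 with all tumours), from 5 to 6 higher and 10 to 12 lower in CP2 versus P1 (6 and 11), and stayed at 3 higher with 11 to 16 lower in CP2 versus CP1 (3 and 13). The lowest, 4 lower in CP1 versus P1, came without P1 replicate 1. Over all genes, these fits called 3323 to 3907 higher and 3398 to 4109 lower in CP1 versus P1. The ranges were 4339 to 5004 higher and 4473 to 5305 lower in CP2 versus P1. In CP2 versus CP1 they were 3094 to 4256 higher and 3131 to 4448 lower. The filter was applied anew in each fit. With no filter, 11 were higher in CP1 versus P1, beside 3705 over all genes. Against a 2-fold change, 4 were higher and 2 lower in CP1 versus P1, 2 higher and 5 lower in CP2 versus P1, and 7 lower in CP2 versus CP1. Of all 17644 genes, that test called 1147 higher and 1517 lower in CP1 versus P1. It called 1423 and 2093 in CP2 versus P1, and 857 and 955 in CP2 versus CP1. With P1 replicates 1 and 2 left out together, 3 were lower in CP1 versus P1; with CP1 replicates 2 and 3 left out together, 7 were lower in CP2 versus CP1. Of single serpin values, 12 lost their call in the former fit (Serpina3g, Serpina3f, Serping1, Serpini1, Serpinb6b and Serpina3m in CP1 versus P1; Serpina3g, Serpina3f, Serpina3n, Serpina3k and Serpinb9b in CP2 versus P1; Serpina3c in CP2 versus CP1) and 10 in the latter (Serping1, Serpini1, Serpina3f and Serpina3m in CP1 versus P1; Serpina3n, Serpinb5, Serpinb6b, Serpine2, Serpina3c and Serpinb1b in CP2 versus CP1). A line left with 1 tumour is assumed to vary like the others.

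Values that changed sign were not called before or after, except that of Prss22. Without CP1 replicates 2 and 3 these were Serpina3g (0.37), Serpina3f (0.05) and Serpina3m (0.43) in CP2 versus CP1, and Serpina3n (-1.03), Serpinb9 (0.02), Serpinf1 (0.46), Serpina3k (-2.93), Serpina7 (0.40) and Prss22 (-0.03) in CP1 versus P1. Without P1 replicates 1 and 2 they were Serpinb9 in CP1 versus P1 (0.32) and Serpina3c in CP2 versus P1 (0.18). With 1 tumour left out, Serpinb9 in CP1 versus P1 ranged from -0.29 to 0.06 and Serpina3g in CP2 versus CP1 from -0.16 to 0.35. The causes were not tested. Serpina3k could not be tested without CP2 replicate 3 or without CP2 replicate 4. Genes below about 0.15 CPM rest on 3 counts or fewer in a CP2 tumour, so differences at that level were not detectable.

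The titles of P1 replicate 1 and CP2 replicate 3, and of P1 replicate 3 and CP2 replicate 4, share a sample number, and nothing states that it pairs them. Their deviations from the line means correlated at -0.194 and -0.061 across genes. In a fit of these 4 tumours with the number as a replicate block, chosen after seeing the data, 4 serpins were higher and 6 lower in CP2 versus P1, against 4 and 7 with the same tumours and no block. Over all genes, 2206 were higher and 2405 lower with the block, against 2597 and 2701 without it. The fewer tumours are part of both fits.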
